A study of Mus musculus with 4 samples.

Results

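In the quadriceps of NF90-NF45 double transgenic mice, 2 genes of a group of 8 linked to the denervation of muscle were higher than in wild-type mice, among 6 that could be tested. They were the adhesion molecule gene Ncam1 and the transcription factor gene Runx1. By the same test, 2.01% of all 13308 tested genes were higher. Neither gene passed that test when a dbTg array was left out. The 8 genes were Ncam1, Runx1, Hdac4, Hdac9, Dach2, Gadd45a, Gap43 and Gdf5, listed by name with earlier results of these data known. Each was read from the brightest probe set paired with that symbol alone. Of these, 7 had such a probe set, out of 22180 genes named on the arrays. The sole probe set that carried the Gadd45a symbol carried another symbol as well, so no value is given for Gadd45a. Total RNA of the quadriceps, a thigh muscle, was hybridised to Affymetrix whole-transcript arrays, with 2 arrays of wild-type mice (WT) and 2 of NF90-NF45 dbTg mice, which carry transgenes for both the double-stranded RNA binding protein NF90 and its partner NF45. Replicate 1 was a male and replicate 2 a female in each group. The mice were 16 weeks old, apart from WT replicate 1 at 17 to 18 weeks. The sources used here do not name the promoter that drives the transgenes, the strain or the number of transgenic lines.

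A muscle fibre that loses its nerve switches on a set of genes that are silent or confined to the synapse in innervated muscle. In the textbook account, the class IIa histone deacetylases HDAC4 and HDAC9 carry the activity signal to the nucleus, where HDAC4 represses Dach2, a repressor of myogenin, and myogenin then drives acetylcholine receptor subunit genes and atrophy genes. Outside that chain, RUNX1 is a transcription factor that denervated fibres induce, NCAM1 spreads from the synapse over the fibre surface, GADD45A is a stress protein acting downstream of HDAC4 and ATF4, GAP43 is a growth cone protein of regrowing axons, and GDF5 is a bone morphogenetic protein ligand that limits the loss of denervated muscle.

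Levels are RMA values in log2 units, so a difference of 1 is a 2-fold difference, and those of different genes cannot be set against each other. Genes with a mean over the 4 arrays at or above the 40th percentile, 1.48, were tested, which left 13308 genes and 6 of the members. A gene under this level in 1 group could thus be tested through its values in the other. Of the members with values, Dach2, with a mean of 1.56, was the nearest above this filter, and Gap43, with 0.87, was the nearest below it and well under it. The arrays differed little in median level over all probe sets, with medians of 1.55 to 1.60. Their spread differed by group. The upper quartile was 2.80 and 2.78 in WT and 2.99 and 2.98 in dbTg. The lower quartile was 1.10 and 1.09 in WT and 0.99 on both dbTg arrays. Ilf2, the gene of NF45, was 5.03 and 5.04 in WT and 10.36 and 10.16 in dbTg, in the direction the labels give. The tissue label was borne out by the 12 skeletal muscle fibre markers, Acta1, Ckm and Myh4 among them, whose median level was 9.90 to 10.19 on the 4 arrays. In tissue RNA, more cells of a type and more RNA per cell cannot be told apart.

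**Figure D1:**
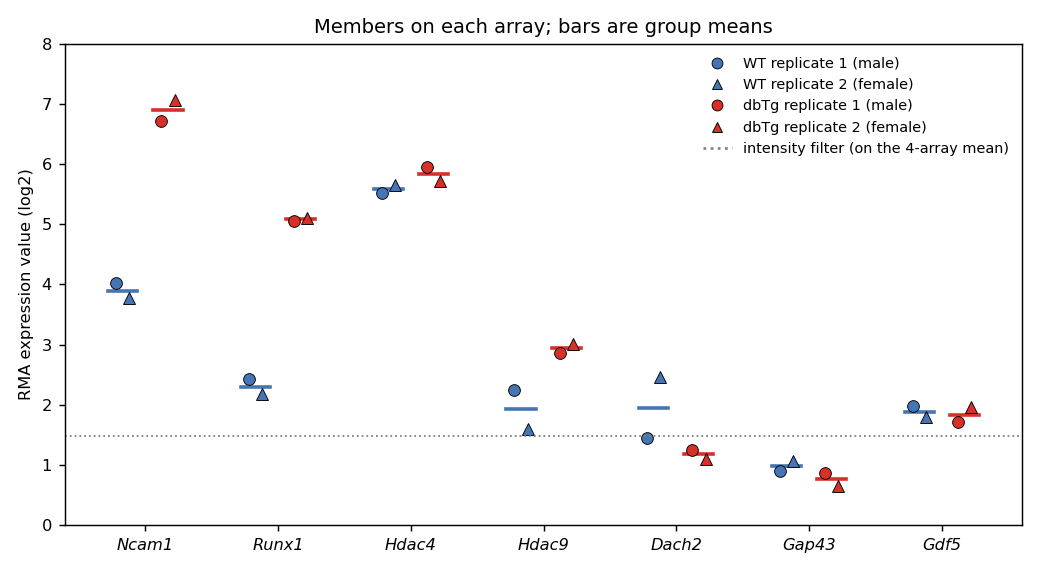
RMA expression value (log2) of the 7 measured members on each of the 4 arrays, with WT in blue, dbTg in red, circles for replicate 1 (male), triangles for replicate 2 (female) and bars for group means; the dotted line is the intensity filter of 1.48, which applies to the mean over the 4 arrays. Ncam1 and Runx1 have dbTg values far above WT, the WT values of Dach2 and Hdac9 lie apart from each other, and Gap43 lies under the line on every array.

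Ncam1 encodes the neural cell adhesion molecule, an immunoglobulin superfamily protein that mediates contact between cells and between nerve and muscle. It read 4.02 and 3.77 in WT and 6.72 and 7.07 in dbTg. Both dbTg arrays stood well above both WT arrays, and the smallest distance between a dbTg and a WT array, 2.70, was more than the spread within either group (0.26 in WT and 0.35 in dbTg). Ncam1 rose 8.01-fold (95% interval 5.73 to 11.2; log2 difference 3.0, SE 0.20, limma adjusted p = 0.00309). The male pair of mice differed by 2.70 and the female pair by 3.30, and 19 of the tested genes (0.143%), Ncam1 included, had a difference at least as large. Without dbTg replicate 1 the limma adjusted p was 0.0755 and without dbTg replicate 2 it was 0.09, at differences of 3.18 and 2.83.

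Runx1 encodes a DNA-binding subunit of the core binding factor, which is also a regulator of blood cell formation. Its probe set read 2.43 and 2.17 in WT and 5.06 and 5.10 in dbTg. The dbTg arrays were nearly equal and both lay above WT, with 2.63 between the nearest arrays. Runx1 rose 6.86-fold (95% interval 4.86 to 9.70; log2 difference 2.78, SE 0.21, limma adjusted p = 0.00322), by 2.63 in the male pair and 2.93 in the female pair. A difference of this size or more was found for 25 of the tested genes (0.188%), Runx1 included. As for Ncam1, the call was lost without dbTg replicate 1 (limma adjusted p = 0.0795) and without dbTg replicate 2 (limma adjusted p = 0.0955), at differences of 2.80 and 2.76.

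The sequences before the annotated start sites of Runx1 are shown because Runx1 was the nuclear regulator that rose, and those of Hdac9 because it had the next largest difference. Each is the stretch of 250 bases before a RefSeq start (GRCm38.p6), printed 5′ to 3′ on the gene's strand, with each match to the E-box CANNTG, the motif bound by myogenin and its relatives, in capitals. RefSeq promoter windows were matched for 5 of the 8 members, 8 windows in all. The Runx1 windows are chr16:92826075-92826324 for the distal start and chr16:92697330-92697579 for the proximal start, and the Hdac9 windows are chr12:34917096-34917345 and chr12:34528890-34529139, all on the minus strand.
Runx1 distal: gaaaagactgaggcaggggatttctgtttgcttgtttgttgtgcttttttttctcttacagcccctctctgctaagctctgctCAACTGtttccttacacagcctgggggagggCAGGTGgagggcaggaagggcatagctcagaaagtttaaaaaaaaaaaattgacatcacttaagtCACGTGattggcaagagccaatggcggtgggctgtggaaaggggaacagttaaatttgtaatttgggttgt
Runx1 proximal: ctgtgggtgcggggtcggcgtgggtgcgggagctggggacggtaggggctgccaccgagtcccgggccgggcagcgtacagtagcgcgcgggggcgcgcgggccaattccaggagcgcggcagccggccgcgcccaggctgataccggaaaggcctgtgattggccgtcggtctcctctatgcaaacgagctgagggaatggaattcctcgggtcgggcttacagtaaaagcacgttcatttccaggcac
Hdac9 distal: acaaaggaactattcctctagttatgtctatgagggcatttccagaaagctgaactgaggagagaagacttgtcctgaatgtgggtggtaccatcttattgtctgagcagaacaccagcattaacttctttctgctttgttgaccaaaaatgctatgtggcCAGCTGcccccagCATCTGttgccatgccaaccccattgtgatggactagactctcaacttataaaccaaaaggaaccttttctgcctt
Hdac9 proximal: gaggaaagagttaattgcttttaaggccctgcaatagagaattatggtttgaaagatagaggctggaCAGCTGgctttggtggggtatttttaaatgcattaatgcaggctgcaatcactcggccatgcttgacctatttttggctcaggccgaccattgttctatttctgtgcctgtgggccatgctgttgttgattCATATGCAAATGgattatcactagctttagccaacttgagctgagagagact

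The distal Runx1 window held 3 E-boxes, which begin 167, 136 and 71 bases before the start, and the last of them is CACGTG. The proximal window held 0. The distal Hdac9 window held 2 and the proximal window 3, of which the last pair adjoin each other. CANNTG was present in 66.2% of all 32851 windows of the same length, so its presence sets no window apart. The form CAGCTG, a subset of CANNTG, was present in 13.0% of all windows, and both Hdac9 windows held it, 89 and 183 bases before their starts. TGNGGT, a loose spelling of the RUNX motif, was searched on either strand. It was in both Hdac9 windows, in the proximal Dach2 window and the Gadd45a window but in neither Runx1 window, against 40.1% of all windows. The Dach2 match was TGTGGT. The Hdac9 and Gadd45a matches were TGGGGT or its reverse complement ACCCCA, and a stricter spelling was not searched. The MEF2 motif, the target of the factors that class IIa deacetylases bind, was in 0 of the 8 windows of members and in 2.92% of all windows. A match describes the letters of the window, and the probe sets do not tell which start was used.

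Hdac9 encodes a class IIa histone deacetylase whose short form, MITR, lacks the catalytic domain and represses MEF2 factors in innervated muscle. It read 2.24 and 1.60 in WT and 2.87 and 3.02 in dbTg. The groups did not overlap, but the WT arrays lay 0.65 apart, about as far as WT replicate 1 lay from the lower dbTg array (0.62). The difference of 1.02 (SE 0.27, 95% interval 0.37 to 1.67) did not pass (limma adjusted p = 0.112, unadjusted p = 0.00759), and 4.02% of tested genes had a difference at least as large. It was 0.62 in the male pair and 1.42 in the female pair. Without WT replicate 1 it was 1.34, and without WT replicate 2 it was 0.70. The call of Hdac9 made without WT replicate 1 rests on 1 WT array, so no conclusion is drawn from it.

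Hdac4 encodes the class IIa deacetylase placed at the top of the denervation chain, where it is known to be regulated by its amount and by its export from the nucleus. Its probe set read 5.52 and 5.65 in WT and 5.95 and 5.72 in dbTg. The dbTg arrays were above the WT arrays by as little as 0.07, less than the spread within either group. The difference was 0.25 (SE 0.18, limma adjusted p = 0.502), and its 95% interval of -0.17 to 0.67, which is 0.890-fold to 1.59-fold, leaves out a doubling. The difference was 0.14 without dbTg replicate 1 and 0.36 without dbTg replicate 2. An RNA level gives no measure of where in the cell the protein is.

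Dach2 encodes a transcriptional corepressor that is known to fall after denervation and to hold down myogenin. It read 1.44 and 2.46 in WT and 1.24 and 1.10 in dbTg. All of these are low values, and the dbTg arrays were both below the WT arrays. WT replicate 2 alone stood clearly above the rest and was the only array above the intensity filter. Dach2 was thus tested only through its value on that array. The difference of -0.78 (SE 0.33, 95% interval -1.56 to -0.000332) did not pass (limma adjusted p = 0.268, unadjusted p = 0.0499), and 1.44% of tested genes had a difference as negative or more so. The male pair differed by -0.20 and the female pair by -1.36. Without WT replicate 1 the difference was -1.29, and without WT replicate 2 it was -0.27. The call made without WT replicate 1 rests on WT replicate 2 as the only WT array, so no conclusion is drawn from it.

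Gap43 encodes a membrane phosphoprotein of growth cones and regrowing motor axons. It read 0.90 and 1.07 in WT and 0.87 and 0.65 in dbTg, under the filter on every array, and was not tested with the other genes. In the fit without a filter its difference was -0.23 (95% interval -0.59 to 0.13, limma adjusted p = 0.511). The dbTg arrays lay below the WT arrays by as little as 0.04, and 24.1% of all measured genes had both dbTg arrays below both WT arrays.

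Gdf5 encodes a secreted ligand of the bone morphogenetic protein family that signals through SMAD1, SMAD5 and SMAD9. Its brighter probe set read 1.97 and 1.80 in WT and 1.71 and 1.96 in dbTg. The groups overlapped, with a difference of -0.05 (SE 0.20, 95% interval -0.53 to 0.42, limma adjusted p = 0.922). Its dimmer probe set read 0.75 and 0.96 in WT and 0.66 and 0.65 in dbTg. Neither probe set showed a rise, and the interval of the brighter one leaves out a doubling.

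**Figure D2:**
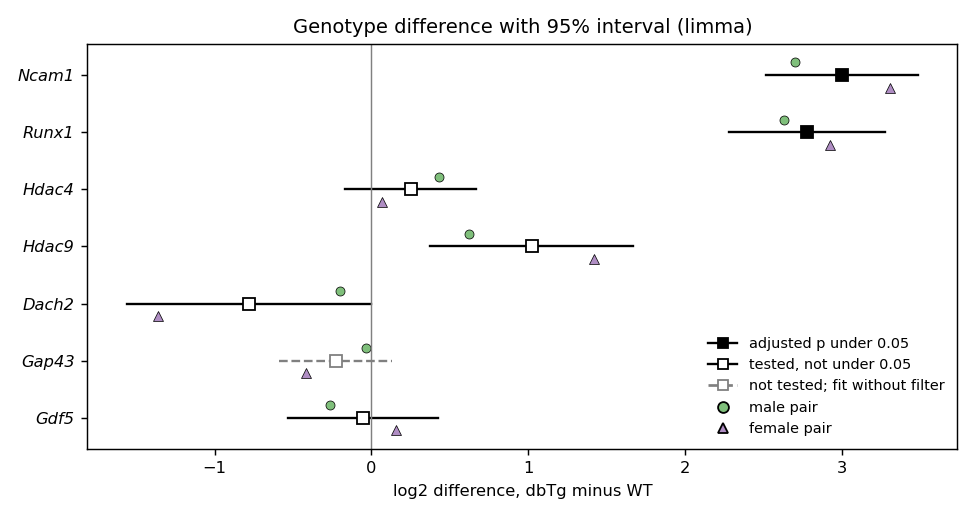
Log2 difference (dbTg minus WT) of each measured member as a square with its 95% limma interval, with the male pair (circle) and the female pair (triangle) of mice; filled squares have an adjusted p under 0.05 and the dashed line is Gap43 in the fit without a filter. The intervals of Ncam1 (2.52 to 3.49) and Runx1 (2.28 to 3.28) lie far from 0, those of Hdac4, Gap43 and Gdf5 cross 0, and the male and female pairs of Dach2 and Hdac9 lie far apart.

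Of the 6 tested members, 2 were called higher in limma, and 2.01% of all tested genes were. None was called lower in limma (0 of 6), and 0.203% of all tested genes were. Without adjustment, p lay under 0.05 for Ncam1, Runx1 and Hdac9 upward and for Dach2 downward, as for 14.0% and 4.64% of all tested genes. Both dbTg arrays lay above both WT arrays for 4 of the 6 tested members, Ncam1, Runx1, Hdac9 and Hdac4, and for 33.7% of all tested genes. They lay below for 1, Dach2, and for 16.3% of all tested genes. The median log2 difference of the 7 measured members was 0.25, and that of all measured genes was -0.02. The members thus did not share a direction: the adhesion gene and Runx1 rose by close to 3 on the log2 scale, Hdac9 and Dach2 had differences of opposite sign that depended on the WT array, and Hdac4, Gap43 and Gdf5 had small differences.

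**Figure D3:**
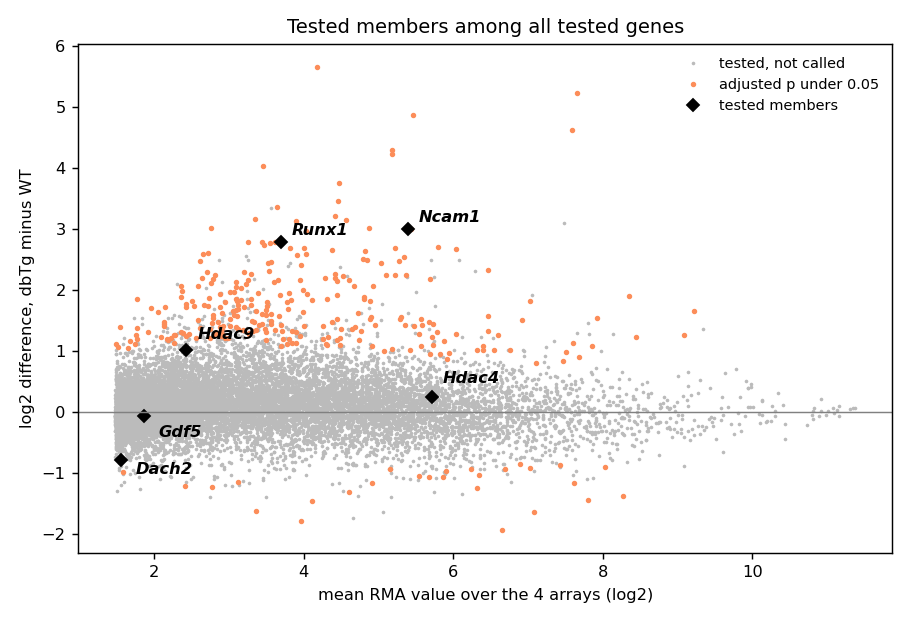
Log2 difference (dbTg minus WT) against the mean RMA value over the 4 arrays for the 13308 tested genes (grey), with called genes in orange and the 6 tested members as black diamonds. Ncam1 and Runx1 lie among the upper edge of called genes, and Hdac9, Hdac4, Gdf5 and Dach2 lie within the grey cloud.

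The tested genes whose 4 array values were most like those of a member, by Euclidean distance after each gene was centred on its own mean, were read as a description. Genes picked this way share a member's difference and array pattern by construction, so that likeness is no separate result. For Ncam1 they were the myeloid lectin gene Clec12a (distance 0.14), the myeloid inhibitory receptor gene Lilrb4a (0.15) and the phagocyte oxidase gene Cybb (0.29). For Runx1 they were H2-Aa, which encodes a chain of class II antigen presentation (0.14), the TWEAK receptor gene Tnfrsf12a (0.22) and Clec12a (0.26). Clec12a read 1.38 and 1.12 in WT, under the filter, and 4.20 and 4.35 in dbTg, through which it was tested. Each of these 5 nearest genes was called higher, with differences of 2.58 to 3.14. For Hdac9 they were the adaptor genes Lpxn (0.04) and Tyrobp (0.08), with the membrane protein gene Lrp11 (0.06) between them, all with a low WT replicate 2 as in Hdac9. For Dach2 they were Klhl33 (0.08), the vascular endothelial growth factor receptor gene Flt1 (0.13) and the F-box gene Fbxo31 (0.13). All of them shared the high WT replicate 2 of Dach2, with 6.48, 5.61 and 5.73 there against 5.37, 4.54 and 4.82 in WT replicate 1. The nearest genes to Hdac4 (Cttn, N4bp2l2 and Alad, 0.02 to 0.03) and to Gdf5 (Gpr171, Ypel1 and Il19, all at 0.03) were not called. Distances over 4 arrays are small for any gene that changes little.

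Other genes of the same pathways were taken from 8 lists, holding 100 genes between them, of which 85 were tested. In limma 8 of these rose (9.41%) and 0 fell (unadjusted p under 0.05 for 32 upward and 3 downward), where 2.01% and 0.203% of all tested genes did. An unadjusted limma p under 0.05 was found for 14.0% of all tested genes upward and 4.64% downward. The counts of each list below are to be read beside these shares. The lists were chosen with earlier results of these data known. Without dbTg replicate 1 and without dbTg replicate 2, 1 of the 8 kept its call, Ankrd1, while without WT replicate 1 the lists held 20 called genes and without WT replicate 2 they held 15.

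In the chain around HDAC4, DACH2 and myogenin, 0 of 17 tested genes passed in limma (unadjusted p under 0.05 for 4 upward and 1 downward; median difference -0.05). Myf6, a myogenic factor of mature fibres, came nearest, at 7.32 and 7.61 in WT and 8.69 and 8.26 in dbTg (difference 1.01, limma adjusted p = 0.0542). It was called with the filter at the 60th percentile (limma adjusted p = 0.0444), with robust eBayes (0.047) and without WT replicate 2 (0.0216). Camk2d, a calcium/calmodulin-dependent kinase of the family that phosphorylates class IIa deacetylases, had a difference of 0.95 (limma adjusted p = 0.0815; called without WT replicate 1, limma adjusted p = 0.0402). Camk2g of the same family had a difference of nearly the same size and opposite sign, -0.88 (limma adjusted p = 0.0921), and Camk2a and Camk2b differed by -0.29 and 0.01. Myog, the target in this chain, read 1.25 and 3.24 in WT and 4.44 and 4.39 in dbTg. The groups did not overlap, and the difference of 2.18 was the largest of this list but did not pass (limma adjusted p = 0.111). It was 3.19 in the male pair and 1.16 in the female pair. The WT arrays of Myog lay far apart, as did those of Dach2. The atrophy ligase genes Fbxo32 and Trim63, downstream of myogenin, had differences of -0.82 and -0.27, with overlapping groups. The other class IIa genes Hdac5 and Hdac7 differed by -0.53 and -0.04, also with overlap.

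Among 11 tested synaptic and receptor genes, 2 rose in limma and 0 fell (unadjusted p under 0.05 for 7 upward and 0 downward; median 0.52). Chrna1, the alpha subunit of the acetylcholine receptor, was 3.43 and 3.63 in WT and 6.01 and 6.08 in dbTg. Chrng, the gamma subunit of the embryonic receptor, was 1.97 and 2.38 in WT and 3.56 and 3.59 in dbTg. Neither gene's groups overlapped (differences 2.52 and 1.40, limma adjusted p = 0.00309 and 0.0429). Chrng lost its call with the replicate number as a block, after quantile normalization and without a filter, and both were lost without either dbTg array. The other receptor subunit genes Chrnb1, Chrnd and Chrne differed by 1.03, 1.69 and 1.27, without overlap. They did not pass (limma adjusted p = 0.0652, 0.0811 and 0.0652). Musk, Rapsn, Lrp4 and Dok7 differed by 0.15, -0.16, -0.15 and 0.16, with overlapping groups.

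Of the 10 tested genes of the NCAM list, which holds relatives of NCAM1, other adhesion genes such as cadherins, a growth factor receptor that NCAM1 binds and the enzymes that add polysialic acid to it, 0 passed in limma (unadjusted p under 0.05 for 3 upward and 0 downward). Ncam2, the closest relative, was not tested, with values of 1.06 and 1.29 in WT and 0.95 and 1.00 in dbTg. The adhesion genes Vcam1 and Icam1 of the same superfamily had differences of 1.42 and 1.04 (limma adjusted p = 0.0618 and 0.0777). These were 1.78 and 1.24 without WT replicate 1, and 1.05 and 0.85 without WT replicate 2. The polysialyltransferase genes St8sia2 and St8sia4 differed by 0.24 and 0.32. None of these reached the difference of Ncam1 (3.0).

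Of 6 tested relatives and partners of RUNX1, 0 passed in limma (unadjusted p under 0.05 for 1 upward and 1 downward). Cbfb, the partner subunit that stabilises RUNX proteins on DNA, read 6.67 and 6.53 in WT and 6.02 and 5.80 in dbTg. Its groups did not overlap and its difference was opposite in sign to that of Runx1 (-0.69, limma adjusted p = 0.0913). The corepressor gene Cbfa2t2 differed by 0.63 (limma adjusted p = 0.221), by 0.41 without WT replicate 1 and by 0.86 without WT replicate 2. Runx3 was under the filter.

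Of 7 tested genes around GADD45 and ATF4, 0 passed in limma (unadjusted p under 0.05 for 2 upward and 0 downward). The replication clamp gene Pcna, whose protein GADD45 proteins bind, differed by 0.69 (limma adjusted p = 0.146). Cdkn1a, the cell cycle inhibitor p21, read 3.14 and 6.51 in WT and 7.11 and 7.52 in dbTg. The WT arrays of Cdkn1a lay further apart than its nearest WT and dbTg arrays, and its difference was 4.17 without WT replicate 2 (limma adjusted p = 6.77e-05) and 0.80 without WT replicate 1. Gadd45b and Gadd45g differed by -0.42 and -0.09.

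Beside Gap43, 0 of 4 tested growth cone genes passed in limma (unadjusted p under 0.05 for 2 upward and 0 downward). They were led by the protein kinase C substrate gene Marcks (0.71, limma adjusted p = 0.21) and Basp1 (0.65, limma adjusted p = 0.252). Marcks was at 1.03 without WT replicate 1 and at 0.38 without WT replicate 2. Basp1 was at 0.94 and 0.36 under the same omissions. Around Gdf5, 1 of 17 tested genes of the bone morphogenetic protein axis rose in limma and 0 fell (unadjusted p under 0.05 for 2 upward and 1 downward). It was Id2, an inhibitor of DNA binding and a target of SMAD signalling, at 2.79 and 2.34 in WT and 4.60 and 4.88 in dbTg (difference 2.17, limma adjusted p = 0.0137). The other targets of that kind, Id1 and Id3, differed by -0.31 and 0.33, and the receptor genes Bmpr1a, Bmpr1b and Bmpr2 by -0.04, -0.24 and -0.16. Of all tested genes, 14.0% had an unadjusted limma p under 0.05 upward and 4.64% downward.

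In the list of other genes known to respond to denervation, 5 of 13 tested genes rose in limma and 0 fell (unadjusted p under 0.05 for 11 upward and 0 downward; median 2.31). They were Ankrd1 (4.61), the embryonic myosin gene Myh3 (4.03), Tnfrsf12a (2.58), the sarcolipin gene Sln (4.87) and the AMP deaminase gene Ampd3 (1.41), the last of which was named after its value was seen. All 13 differences of this list were positive, but the list was chosen with earlier results of these data known. Of all tested genes, 2.01% were called higher, and 14.0% had an unadjusted limma p under 0.05 upward. Myh3 had a WT mean of 1.44, under the filter, and was tested through its dbTg values. Ampd3 lost its call under the same settings as Chrng, Sln lost its call with robust eBayes, and Id2 with the replicate block.

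**Figure D4:**
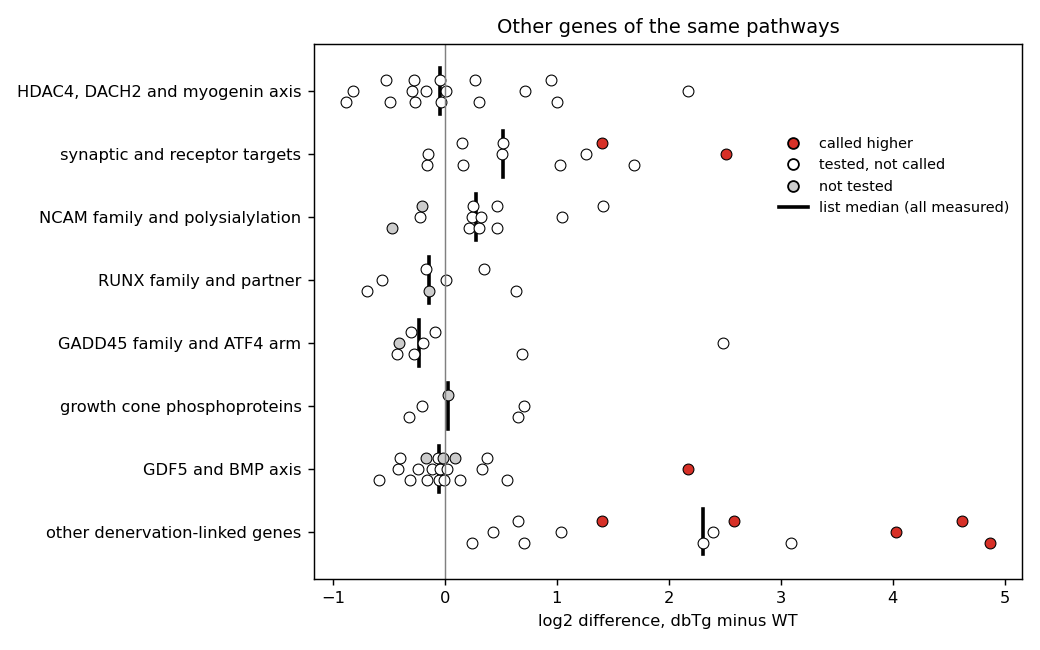
Log2 difference (dbTg minus WT) of every measured gene of the 8 pathway lists; red points were called higher, white points were tested and not called, grey points were under the filter, and vertical bars are list medians over the measured genes. Calls are found among the synaptic and receptor genes (2), the GDF5 and BMP axis (1) and the other denervation-linked genes (5), and the lists around HDAC4, NCAM, RUNX, GADD45 and growth cones hold none in limma.

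Markers of other cell types in which Ncam1, Runx1 and Gap43 are known to be expressed were measured beside them. Across all tested genes, 2.01% rose in limma and 0.203% fell, with an unadjusted p under 0.05 for 14.0% upward and 4.64% downward. All marker counts are to be read beside these shares. Of 13 tested macrophage and leukocyte markers, 7 rose in limma and 0 fell (unadjusted p under 0.05 for 9 upward and 0 downward). The summed linear level of the 17 measured was 112 to 114 in WT and 561 to 661 in dbTg. Ptprc, the common leukocyte antigen, read 2.05 and 2.04 in WT and 5.03 and 4.63 in dbTg. The natural killer cell genes Ncr1 and Klrb1c, markers of a lymphocyte class that carries NCAM1 in humans, were under the filter. The part of leukocytes in the rise of Runx1 and Ncam1 was not tested.

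Of 9 tested Schwann cell and nerve markers, 1 rose in limma, Uchl1, which read 2.23 and 2.10 in WT and 3.27 and 3.62 in dbTg, and 0 fell (unadjusted p under 0.05 for 2 upward and 0 downward). The summed linear level of the 15 measured was 53.6 to 56.2 in WT and 64.1 to 80.6 in dbTg. Of these 15, 7 had a positive and 8 a negative difference, with a median of -0.05. The Schwann cell genes Mag and Sox10 and the neurofilament genes Nefl, Nefm and Nefh had means over the 4 arrays under the filter, as Gap43 had. Of 9 tested satellite cell and myoblast markers, 2 rose in limma, Mymk and Myf5, and 0 fell (unadjusted p under 0.05 for 6 upward and 0 downward). The summed linear level of the 10 measured was 55.1 to 67.8 in WT and 149.6 to 154.1 in dbTg. Of these 10, 8 had a positive and 2 a negative difference, the largest being that of Mymk (3.21). Myf5 read 1.27 and 1.11 in WT, under the filter, and 2.27 and 2.35 in dbTg, through which it was tested. Pax7, the defining satellite cell gene, differed by -0.28, with overlapping groups. The part of myogenic cells in the rise of Ncam1 was not tested.

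Among fibroblast markers 1 of 9 rose in limma, Thy1, and 0 fell (unadjusted p under 0.05 for 5 upward and 0 downward). Thy1 read 1.11 and 1.15 in WT, under the filter, and 2.06 and 2.29 in dbTg, through which it was tested. The summed linear levels of the fibroblast markers were 840.5 to 953.4 in WT and 1217 to 1314 in dbTg. Among 10 endothelial markers none passed in limma (unadjusted p under 0.05 for 0 upward and 4 downward), with sums of 301.9 to 307.3 in WT and 174.7 to 215.8 in dbTg. The 12 fibre markers had 0 calls in limma (unadjusted p under 0.05 for 2 upward and 0 downward) and sums of 13880 to 14810 in WT and 14060 to 15110 in dbTg.

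**Figure D5:**
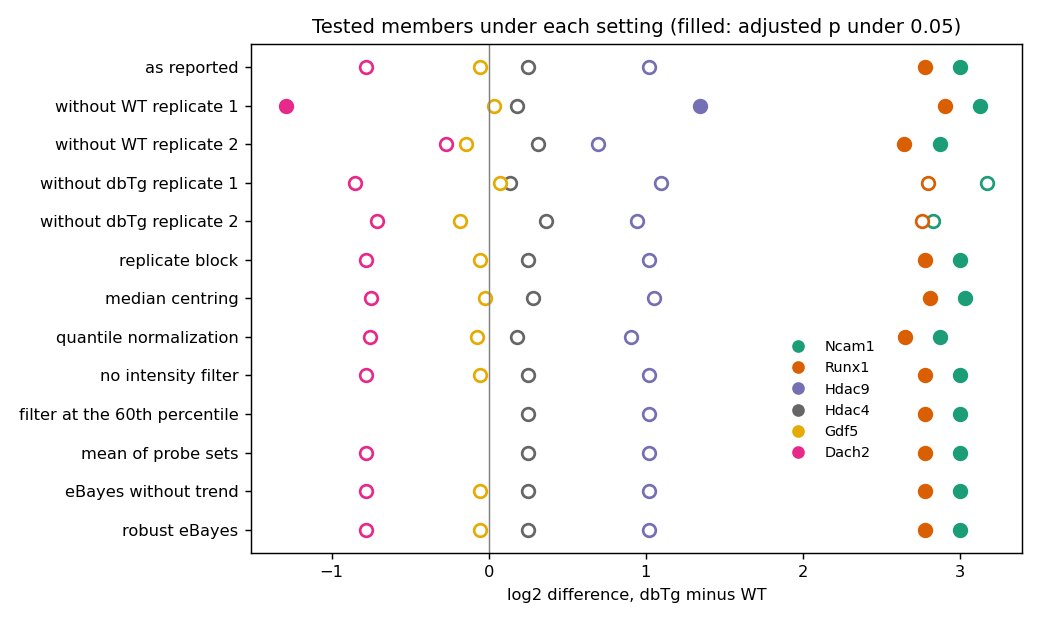
Log2 difference (dbTg minus WT) of the 6 tested members under the reported setting and each alternative, filled where the limma adjusted p is under 0.05; a gene under an alternative's filter has no point there. Ncam1 (2.83 to 3.18) and Runx1 (2.65 to 2.91) keep their size and lose the call where a dbTg array is left out, and Hdac9 and Dach2 move with the WT array left out.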

How the data were processed

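Total RNA of quadriceps from 2 WT and 2 NF90-NF45 dbTg mice was measured on Affymetrix whole-transcript arrays. Per the labels, the authors deposited RMA values in log2 units from Affymetrix Expression Console. RMA corrects background, normalizes by quantiles and summarises probe sets. The deposited values nonetheless had unequal quartiles across the arrays. The software version and annotation build are not named in the sources used here.

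Of 41345 probe sets, 23521 had exactly 1 symbol, 1814 several and 16010 none; 23328 were matched to RefSeq (GRCm38.p6) and 0 symbols changed. Each gene was read from its brightest probe set (mean over the 4 arrays). Genes at or above the 40th percentile were tested with limma 3.58.1 in R 4.3.3 (lmFit, trended eBayes; 2 residual and 4.76 prior degrees of freedom), two-sided, Benjamini-Hochberg adjusted over all tested genes, threshold 0.05. The p-values rest on 2 mice a group, and with so few arrays their number limits the precision. SE and 95% intervals are the moderated ones. The procedure was tested on simulated data. The summed linear level of markers is the sum of 2 raised to the log2 value, so the brightest genes weigh most in it.

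The text names the 8 members and Ilf2. From each pathway list it names up to 4 called genes, or the 2 with the smallest p, and for each tested member the 3 nearest genes. Other genes serve as examples and were chosen after their values were seen. Members and lists were chosen with earlier results of these data known. Alternatives left out each array, blocked on replicate number, centred or quantile-normalized arrays, changed the filter, averaged probe sets or changed eBayes. They were also applied to the count of pathway genes and to Ampd3, which was decided after seeing the data.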

Additional observations from a re-analysis of the deposited data

Results flagged for a closer look

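Gdf5 differed by -0.27 in the male pair and by 0.16 in the female pair of mice. It stands here because every sample of the pair of males moved one way and that of the females the other way. The difference between the sexes was not tested, since each sex holds 1 mouse per group, and 36.4% of all tested genes had opposite signs in the pairs.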

How the results depend on the processing

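Leaving out an array moved the counts most: members called higher ranged from 0 to 3, members called lower from 0 to 1, all genes called higher from 4 to 610 (267 as reported), all genes called lower from 0 to 156 (27 as reported) and pathway genes called higher from 1 to 20 (8 as reported). A lone array of a group was assumed to vary like the other group. With the replicate number as a block, 63 genes were higher, 2 lower and 5 pathway genes higher; Ncam1 and Runx1 kept their calls (limma adjusted p = 0.0269 for each). Same-numbered arrays did not deviate together (correlation 0.0486 across genes). They share a number and a sex, and the labels name no shared litter or day. With 2 pairs, this correlation cannot tell whether the mice were paired. After quantile normalization 120 genes were higher and 7 lower, and without a filter 165 and 7. A filter at the 60th percentile gave 44 lower, and eBayes without a trend 14. The cause was not tested. Gdf5, with a difference near 0, ranged from -0.18 to 0.070 when an array was left out and was positive without WT replicate 1 (0.033) and without dbTg replicate 1 (0.070). Ncam1 and Runx1 kept their calls in 10 of 12 alternatives each. Of 216 alternative values of the 18 pathway genes, 186 stayed on their side of the threshold, 22 lost and 8 gained a call, and 0 changed sign. Gap43 had a value in the fit without a filter only. Signal close to background limits Dach2, Gap43, Gdf5 and the WT level of Hdac9.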
